A study of Homo sapiens with 18 samples.

Results

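Readthrough reads of heat shock protein and chaperone genes were counted in nascent RNA of K562, a human leukemia cell line that carries the BCR-ABL1 fusion kinase. Of the 13051 transcripts in the table, 1 per gene, 12704 were matched by identifier to the GENCODE annotation, and 75 of these had a symbol beginning with HSPA, HSPB, HSPD, HSPE, HSPH, HSP90, DNAJ or CCT followed by a digit, or were TCP1. All 75 are annotated as protein coding. The rule is one of names, so it also took HSPBP1 and HSPBAP1, which entered the HSPB family by the letters of their symbols, and annotated fusions of neighbouring genes such as HSPE1-MOB4.

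The study asked how imatinib, an inhibitor of the BCR-ABL1 kinase, alters readthrough, the transcription of sequence downstream of a gene by polymerases whose RNA was not cut at the 3′ end of that gene. RNA was taken from chromatin, depleted of polyadenylated and ribosomal RNA and sequenced as PacBio long reads, so the 3′ end of a read marks where the polymerase stood. A read was counted as readthrough when its 3′ end lay more than 100 nt past the last exon of a gene. The values below are therefore counts of uncleaved RNA, which move with both transcription and cleavage, and reads within gene bodies were not used here.

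The 18 libraries fell into 6 groups of 3 biological replicates. CTRL and CTRLim were untreated cells. KCl 45min cells were exposed to 110 mM KCl for 45 min, which raises the osmolarity of the medium, JTE 1h cells to 5 µM JTE-607, an inhibitor of the cleavage endonuclease CPSF73, for 1 h, and IM 1h and IM 18h cells to 1 µM imatinib for 1 h or 18 h. CTRLim was prepared together with the imatinib libraries. Imatinib was compared with CTRLim, KCl and JTE-607 with CTRL, and KCl also with JTE-607.

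The libraries held 8422 to 57982 readthrough reads each, which was 2.15% to 2.68% of library reads in KCl 45min and 3.06% to 5.40% in the other groups. JTE 1h replicate 1, at 3.06%, stood apart from its replicates at 5.40% and 5.05%. The erythroid genes HBE1, HBG1, TAL1 and NFE2 had readthrough reads in all 18 libraries, GATA1 in 14 and KLF1 in 16. Among markers of other cell types, COL1A2 had no read, LYZ had 1 read and EPCAM had 4 over all libraries, whereas KRT19 had 63.

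Chaperones bind unfolded or partly folded proteins and release them in cycles driven by ATP. HSP70 proteins (HSPA genes) hold short hydrophobic stretches, J-proteins (DNAJ genes) deliver clients to them and stimulate their ATPase, and HSP90 acts later on kinases and receptors, BCR-ABL1 among its clients. Mitochondria use HSPD1 and its lid HSPE1, and the cytosolic ring chaperonin TRiC, built from the CCT subunits and TCP1, folds actin and tubulin. HSF1 is the transcription factor that induces many of these genes under proteotoxic stress.

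The 75 genes together gave 4270 of 447434 readthrough reads. No read was found for 5 genes, 24 had 1 to 9 reads, 16 had 10 to 29 and 30 had at least 30. The median was 18 reads per gene against 10 for all transcripts of the table. The cytosolic HSP70 HSPA8 had 952 reads, the cytosolic HSP90 HSP90AB1 456, the chaperonin subunit CCT5 385, the mitochondrial HSP70 HSPA9 230 and the chaperonin subunit TCP1 222, and these 5 genes gave 52.6% of the reads. By family, 12 HSPA genes gave 1389 reads, 10 chaperonin genes 988, 26 DNAJC genes 643, 3 HSP90 genes 524, 11 DNAJB genes 457, 4 DNAJA genes 106, 3 HSPD and HSPE genes 105, 5 HSPB genes 34 and HSPH1 24. At least 30 reads were reached by 8 of the 10 chaperonin genes, 2 of the 3 HSP90 genes, 2 of the 3 HSPD and HSPE genes, 5 of the 12 HSPA genes, 2 of the 4 DNAJA genes, 4 of the 11 DNAJB genes, 7 of the 26 DNAJC genes and none of the HSPB genes.

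The sequences around the annotated 3′ ends are shown because these ends define the counted region. Each begins 30 bases before the end of the transcript and continues 70 bases downstream on the strand of the gene, in GRCh38, with an AATAAA polyadenylation hexamer in capitals. The windows are CCT5 at chr5:10266360-10266459, TCP1 at chr6:159778428-159778527 (minus strand), CCT6A at chr7:56063960-56064059, HSPA8 at chr11:123057419-123057518 (minus strand), HSPA9 at chr5:138553686-138553785 (minus strand) and HSP90AB1 at chr6:44253859-44253958.
CCT5: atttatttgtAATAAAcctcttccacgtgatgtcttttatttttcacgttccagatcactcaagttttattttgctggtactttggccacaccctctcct
TCP1: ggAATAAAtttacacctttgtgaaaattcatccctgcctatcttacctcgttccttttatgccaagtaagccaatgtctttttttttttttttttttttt
CCT6A: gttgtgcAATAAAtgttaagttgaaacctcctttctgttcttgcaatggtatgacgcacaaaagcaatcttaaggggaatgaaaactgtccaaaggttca
HSPA8: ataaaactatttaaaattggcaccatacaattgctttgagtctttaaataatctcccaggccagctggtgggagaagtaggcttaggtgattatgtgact
HSPA9: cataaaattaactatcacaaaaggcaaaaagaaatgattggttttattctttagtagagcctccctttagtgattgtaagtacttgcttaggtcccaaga
HSP90AB1: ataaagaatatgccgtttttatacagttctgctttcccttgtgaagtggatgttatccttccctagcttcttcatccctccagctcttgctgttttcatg

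The 3 chaperonin genes of this set carried AATAAA in the last 30 bases, and the HSPA8, HSPA9 and HSP90AB1 windows held neither AATAAA nor ATTAAA there. In HSPA8 and HSP90AB1 an AATAAA began 31 bases before the end, just outside the window. Over the last 50 bases, 46 of 75 chaperone transcripts (61.3%) held AATAAA, against 60.4% of all matched transcripts, and 22 (29.3%) held neither hexamer, against 25.6%. The chaperone genes carried these hexamers at about the frequency of the annotation as a whole.

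Other genes lay close to several of these ends. For 5 of the 75 genes (6.67%, against 6.45% of all matched transcripts) the counted region began inside another gene on the same strand, among them CCT6A, whose neighbour SUMF2 begins 13 bp on, and HSPA1B. On the opposite strand, a gene covered this point for 15 genes (20.0%, against 24.5%), among them TCP1 with ACAT2, DNAJC7 with CNP and CCT5 with ENSG00000271980. The use of strand in the counting was not given in the sources used here, so reads of such pairs cannot be told apart with certainty.

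Because HSF1 target promoters carry heat shock elements, the RefSeq promoters (250 bases before and 50 after the start, GRCh38.p14) were searched for 3 adjoining units, written GAANNTTCNNGAA or its reverse complement TTCNNGAANNTTC. The element was found in 4 of 69 chaperone promoters (5.80%) and in 133 of 27305 promoters in all (0.487%). The 4 genes were DNAJA1, DNAJB6, HSPA6 and HSPA8. Over all libraries HSPA8, the only one with 2 elements, had 952 readthrough reads, DNAJA1 41, DNAJB6 9 and HSPA6 8. The HSPA8 promoter at chr11:123062087-123062386 (minus strand) is shown with both elements in capitals.
HSPA8: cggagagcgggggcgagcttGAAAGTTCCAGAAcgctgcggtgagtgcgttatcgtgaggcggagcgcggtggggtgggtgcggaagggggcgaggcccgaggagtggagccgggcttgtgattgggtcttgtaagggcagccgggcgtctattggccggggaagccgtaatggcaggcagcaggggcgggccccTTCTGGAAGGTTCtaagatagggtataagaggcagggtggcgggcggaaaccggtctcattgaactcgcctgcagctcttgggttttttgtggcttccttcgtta

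HSPA6, an HSP70 gene known for its strict dependence on stress, also carried the element and had at most 2 readthrough reads in any library, KCl 45min included. A match of these letters is a description of the promoter and not evidence of HSF1 binding. Only exact matches within these 300 bases were counted, so a promoter without one may still hold a less exact or more distant element.

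To read the genes as a group, readthrough reads were summed and given as reads per 1000000 library reads (RPM). The sums were 347, 312 and 445 RPM in CTRL, 297, 268 and 214 RPM in KCl 45min and 287, 560 and 514 RPM in JTE 1h. They were 409, 398 and 427 RPM in CTRLim, 437, 501 and 440 RPM in IM 1h and 282, 294 and 272 RPM in IM 18h. All KCl libraries lay below all CTRL libraries, JTE 1h overlapped both, and IM 18h lay below CTRLim and IM 1h without overlap.

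As log2 ratios of the group means, with no test, the sum was −0.50 in KCl 45min against CTRL, 0.30 in JTE 1h against CTRL, and −0.81 in KCl 45min against JTE 1h. It was 0.16 in IM 1h and −0.54 in IM 18h against CTRLim, and −0.70 in IM 18h against IM 1h. Relative to all readthrough reads the picture differed. The chaperone genes held 0.921% to 1.25% of readthrough reads in the 15 libraries outside IM 18h and 0.767%, 0.785% and 0.737% in IM 18h. Scaled by readthrough reads, the sum was at −0.014 (log2) in KCl 45min against CTRL, −0.11 in JTE 1h against CTRL and 0.098 in KCl 45min against JTE 1h. The sign thus turned in JTE 1h against CTRL and in KCl 45min against JTE 1h. The IM 18h sum remained lower, at −0.43 against CTRLim and −0.46 against IM 1h.

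**Figure D1:**
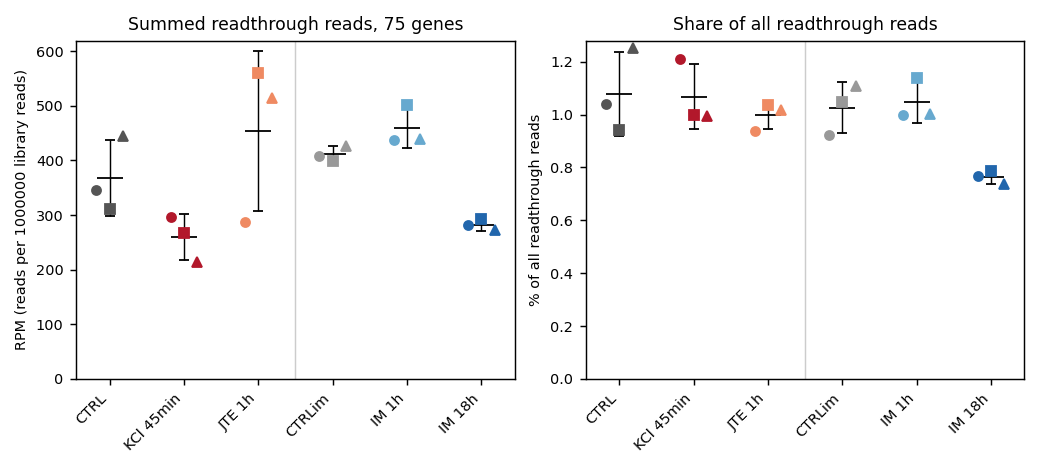
Summed readthrough reads of the 75 chaperone genes in each library, in RPM (left) and as a percent of all readthrough reads (right). Circles, squares and triangles are replicates 1, 2 and 3, and bars show the mean ± SD (n = 3). KCl 45min is low on the left only, at 214 to 297 RPM, and IM 18h is low in both, at 0.737% to 0.785% on the right.

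The families did not move alike. The chaperonin genes gave 91.6 ± 18.9 RPM in CTRL, 34.7 ± 8.09 RPM in KCl 45min and 142 ± 55.0 RPM in JTE 1h (mean ± SD, n = 3 each), with no overlap between KCl and the other groups. The HSPA genes gave 119 ± 5.06, 105 ± 29.3 and 102 ± 43.8 RPM in the same groups, which overlapped. In the imatinib set the HSPA genes lay lower at 18 h, with 175 ± 35.3 RPM in CTRLim, 161 ± 6.51 RPM in IM 1h and 88.5 ± 6.98 RPM in IM 18h. The HSP90 genes gave 48.6 ± 8.56, 51.3 ± 1.93 and 25.1 ± 7.16 RPM there. The DNAJB genes gave 35.6 ± 8.63, 53.2 ± 5.29 and 39.9 ± 4.20 RPM, so that IM 18h overlapped CTRLim.

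**Figure D2:**
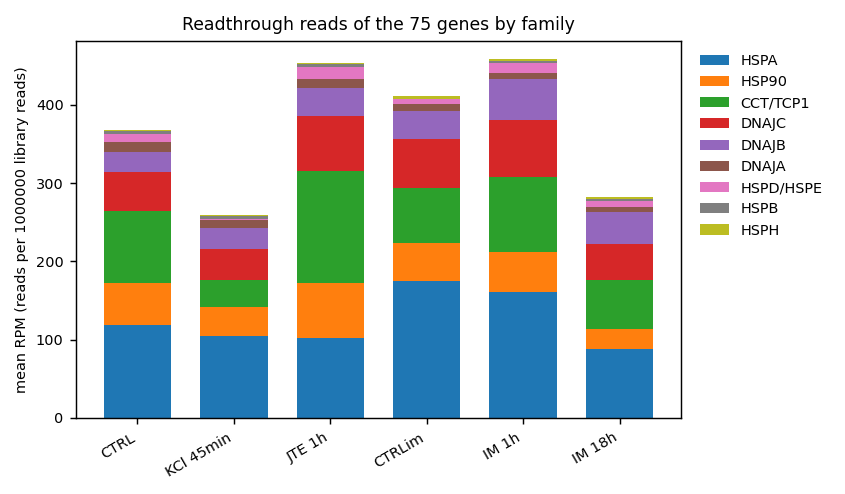
Mean readthrough RPM (n = 3 libraries) in each group, stacked by chaperone family. In RPM, the chaperonin genes (CCT/TCP1) are lowest in KCl 45min, at 34.7 RPM, and the HSPA and HSP90 genes are lowest in IM 18h, at 88.5 and 25.1 RPM.

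Osmotic stress was compared with CTRL gene by gene with edgeR's quasi-likelihood test and Benjamini-Hochberg adjustment over all genes tested. With at least 30 reads over the 6 libraries, 6 of the 75 genes were tested and none was called, against 25.1% of all 378 genes tested. DESeq2 also called 0, and 1 gene, HSPA9, had an unadjusted edgeR p under 0.05. CCT5 and TCP1 fell just under the minimum of reads. With the lower minimum of 10 reads, 17 chaperone genes were tested and 3, all chaperonin subunits, were called lower, against 11.8% of 1885 genes. These were CCT5, TCP1 and CCT6A. The median log2 fold change was −0.05 over the 17 genes, −0.03 with genes at the floor set to their bounds, and −0.41 over all 1885.

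CCT5 had 10, 9 and 6 reads in CTRL and 0, 1 and 1 in KCl 45min, while JTE 1h had 17, 43 and 84. In RPM this was 27.7, 21.9 and 23.2 in CTRL, 0, 3.19 and 0.947 in KCl 45min and 37.0, 83.6 and 73.2 in JTE 1h. Every KCl library lay below every library of the other 5 groups, whose lowest value was 17.0 RPM. Taking 3 reads per library as the floor that a count of 0 allows, CCT5 was at least 3.70-fold lower in KCl 45min than in CTRL (adjusted p = 0.00015, edgeR with at least 10 reads) and at least 9.84-fold lower than in JTE 1h (adjusted p = 6.5e-08, edgeR with at least 30 reads). Both calls held under every alternative tried.

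TCP1 had 6, 10 and 9 reads in CTRL, 1, 0 and 3 in KCl 45min and 4, 16 and 27 in JTE 1h. In RPM this was 16.6, 24.4 and 34.8, then 2.44, 0 and 2.84, then 8.70, 31.1 and 23.5. The KCl libraries were again below all others. TCP1 was at least 3.85-fold lower than in CTRL (adjusted p = 0.00071, edgeR with at least 10 reads), a call that held under every alternative tried. Against JTE 1h it was at least 3.21-fold lower (adjusted p = 0.00076, edgeR), a call that was lost with TMM scaling (adjusted p = 0.0519).

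CCT6A had 5, 4 and 1 reads in CTRL, 1, 0 and 0 in KCl 45min and 5, 4 and 20 in JTE 1h. It was at least 1.39-fold lower than in CTRL (adjusted p = 0.036, edgeR with at least 10 reads) and at least 1.83-fold lower than in JTE 1h (adjusted p = 0.0056, edgeR). The first call was lost without KCl 45min replicate 2 (adjusted p = 0.0744) or 3 (0.210), with TMM scaling (0.115), with readthrough reads as the scale (0.105), with no minimum of reads (0.131) and with the replicate block (0.155). The second was lost without KCl 45min replicate 3 (adjusted p = 0.160, edgeR), with TMM scaling (0.0747) and with readthrough reads as the scale (0.0570).

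The other subunits of the ring did not all follow. CCT3 had 1, 4 and 0 reads in CTRL and 11, 2 and 10 in KCl 45min, with overlapping RPM values of 2.77, 9.75 and 0 against 26.8, 6.37 and 9.47. CCT7 gave 12.1 ± 2.99 RPM in CTRL, 12 ± 3.4 RPM in KCl 45min and 13.2 ± 5.83 RPM in JTE 1h (mean ± SD, n = 3 each). CCT5, TCP1 and CCT6A together gave 60 reads in CTRL, 7 in KCl 45min and 220 in JTE 1h. The 5 subunits CCT2, CCT3, CCT4, CCT7 and CCT8 together gave 32, 50 and 105 reads, or 32.9 ± 16.9, 29.7 ± 8.04 and 44.2 ± 20.0 RPM. Within this sum, CCT2, CCT4 and CCT8 had lower means in KCl 45min than in CTRL, at 0, 2.33 and 1.13 against 7.73, 5.01 and 3.84 RPM. The mean of CCT3 was higher, at 14.2 against 4.17 RPM. The 2 sets were formed by the calls in these same libraries, so their contrast is a description and no test. Without CCT5, TCP1 and CCT6A the remaining 72 genes gave 309 ± 66.0 RPM in CTRL and 256 ± 41.7 RPM in KCl 45min, which overlapped.

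**Figure D3:**
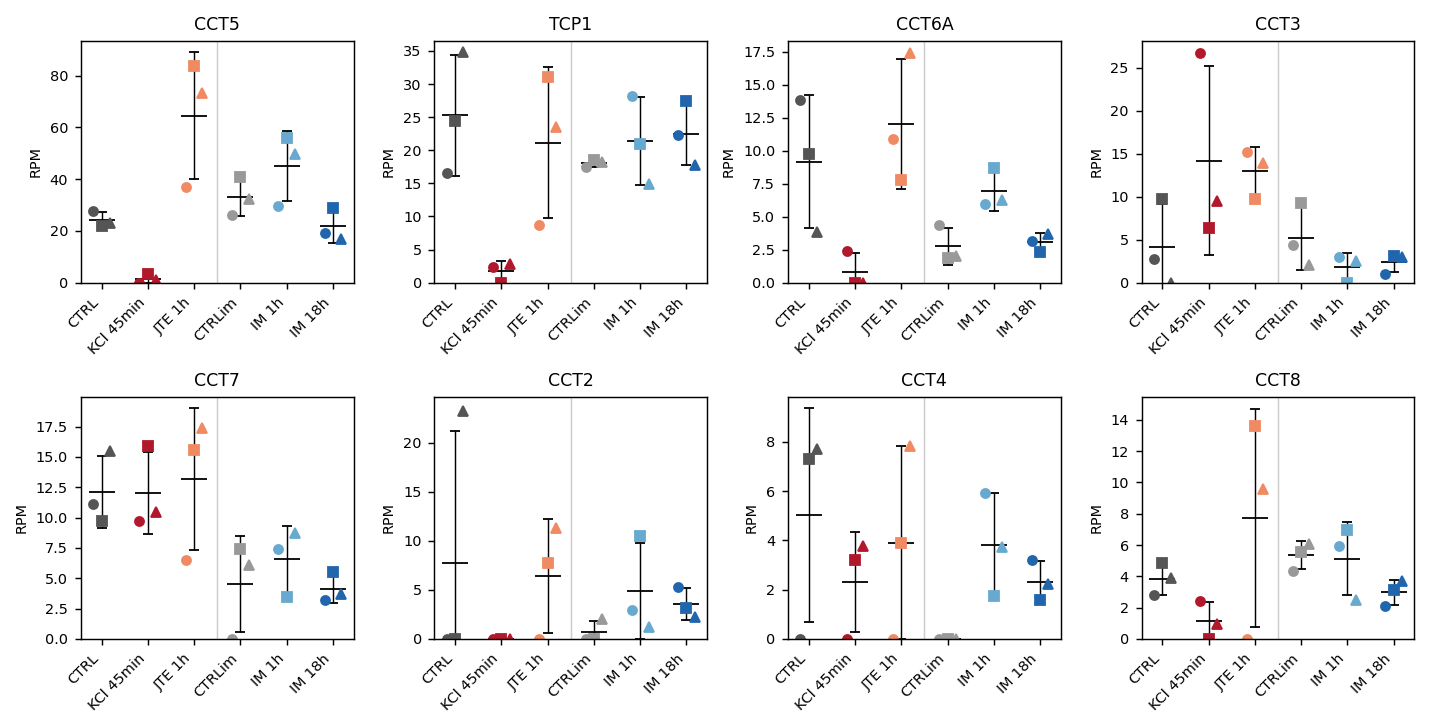
Readthrough RPM of 8 chaperonin genes in each library. Circles, squares and triangles are replicates 1, 2 and 3, bars show the mean ± SD (n = 3), the part of a bar below 0 is not drawn, and each panel has its own scale. KCl 45min is at 0 to 3.19 RPM for CCT5 and 0 to 2.84 RPM for TCP1, and overlaps CTRL for CCT3 and CCT7.

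HSPA8 was the main readthrough gene of the group in KCl-treated cells. It gave 85.9, 85.3 and 73.5 RPM in CTRL, 105, 79.7 and 55.9 RPM in KCl 45min and 41.3, 72.0 and 46.2 RPM in JTE 1h. The KCl values spread over both sides of CTRL, with a log2 fold change of −0.05 ± 0.48 (SE, adjusted p = 0.956, edgeR). HSP90AB1 gave 41.6, 34.1 and 61.9 RPM in CTRL and 31.7, 35.0 and 22.7 RPM in KCl 45min, a log2 fold change of −0.64 ± 0.50 (SE, adjusted p = 0.400, edgeR). HSPA9 gave 16.6, 21.9 and 34.8 RPM in CTRL and 4.87, 12.7 and 10.4 RPM in KCl 45min. These values did not overlap, and the log2 fold change of −1.32 ± 0.62 (SE) had an adjusted p of 0.120 in edgeR's test.

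The stress-induced HSP70 genes HSPA1A and HSPA1B are near-identical copies, so reads may be split between them. Together they had 1, 1 and 1 reads in CTRL, 8, 1 and 10 in KCl 45min and 0, 0 and 2 in JTE 1h. The KCl libraries spread from 3.19 to 19.5 RPM and overlapped CTRL, at 2.44 to 3.87 RPM. The J-protein DNAJB1, which works with HSPA1A and HSPA8, gave 9.55 ± 5.40 RPM in CTRL and 12.7 ± 7.24 RPM in KCl 45min, and HSPH1, a nucleotide exchange factor of HSP70, had at most 1 read per library in both. The small heat shock protein gene HSPB1 had at most 1 read per library there.

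The mitochondrial chaperonin genes HSPD1 and HSPE1 gave too few reads for the test against CTRL. HSPD1 had 7 reads over the 3 CTRL libraries, 1 in KCl 45min and 12 in JTE 1h, and its lid HSPE1 had 3, 1 and 18. Of the other HSP90 genes, HSP90AA1 had 7, 4 and 14 reads in these groups and HSP90B1, of the endoplasmic reticulum, 1, 6 and 7. The J-protein gene DNAJA1 had 4, 10 and 6 reads. DNAJC6, an auxilin that uncoats clathrin vesicles with HSPA8, was sparse there with 3, 6 and 3 reads but had 6 reads in CTRLim, 11 in IM 1h and 39 in IM 18h. In edgeR's test, which accounts for depth, it was at 1.15 ± 0.64 (log2 fold change ± SE, adjusted p = 0.245) in IM 18h against CTRLim and 1.00 ± 0.49 (adjusted p = 0.150) against IM 1h.

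JTE-607 against CTRL left 12 chaperone genes with at least 30 reads, and none was called, against 0.103% of the 969 genes tested (1 gene). DESeq2 also called 0, and 1 chaperone gene, CCT5, had an unadjusted edgeR p under 0.05. The median log2 fold change was 0.61 over the 12 genes, 0.43 with genes at the floor set to their bounds, and 0.49 over all 969. CCT5 was higher in each JTE library (37.0 to 83.6 RPM) than in any CTRL library (21.9 to 27.7 RPM), with a log2 fold change of 1.41 ± 0.53 (SE, adjusted p = 0.286, edgeR). It stayed uncalled under 12 of 14 alternatives, among them without JTE 1h replicate 2 (1.20, adjusted p = 0.696, edgeR) or 3 (1.31, 0.946) and with TMM scaling (0.93, 0.539). The call was made without JTE 1h replicate 1, the library with the low readthrough share (1.67, adjusted p = 0.0254, edgeR). It was also made in one fit of all 18 libraries (1.42, 0.0434).

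KCl 45min and JTE 1h were set against each other, with the same KCl libraries as above. Of 12 chaperone genes tested, 4 were called lower in KCl 45min and 0 higher, against 34.1% of 999 genes called lower. The median log2 fold change was −0.87 over the 12 genes, −0.73 with genes at the floor set to their bounds, and −1.21 over all 999, so most genes were lower in KCl than in JTE-607. The chaperonin genes CCT5, TCP1 and CCT6A made up 3 of the 4, out of 5 chaperonin genes tested. The fourth was HSPA5, the HSP70 of the endoplasmic reticulum, with 1, 1 and 1 reads in KCl 45min and 0, 9 and 20 in JTE 1h. HSPA5 was at least 1.77-fold lower in KCl (adjusted p = 0.0297, edgeR), although JTE 1h replicate 1 had no read, and the call was lost without any one of the KCl libraries (adjusted p = 0.0556 to 0.282). It was also lost with DESeq2 (adjusted p = 0.148), with TMM scaling (0.267), with readthrough reads as the scale (0.223) and with no minimum of reads (0.0901).

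Scaling changed this comparison. Without the general shift, under TMM scaling, the median of all genes was −0.18, 50 genes were called higher and 114 lower in place of 12 and 341, and 2 chaperone genes were called. CCT5 was still lower (log2 fold change −4.61, adjusted p = 0.00113, edgeR) and HSPA8 was higher in KCl 45min (1.51, adjusted p = 0.0217, edgeR), whereas by library reads HSPA8 was at 0.58 ± 0.54 (SE, adjusted p = 0.412, edgeR). The replicate block left the same number of chaperone genes called, 4.

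With at least 10 reads, 32 chaperone genes were tested and 8 were called, 7 lower and 1 higher in KCl 45min, against 17.4% of 3685 genes called in either direction. DESeq2 called 2 of them, CCT5 and TCP1. Beside the 4 above, the lower ones were CCT2 with 0, 4 and 13 reads in JTE 1h, HSPE1 with 4, 6 and 8 and DNAJC19, a mitochondrial J-protein, with 4, 3 and 5. KCl 45min had no read of CCT2 or DNAJC19 in any library and 1, 0 and 0 reads of HSPE1. The higher one was HSPA1A, with 5, 0 and 5 reads in KCl 45min and none in JTE 1h, at least 1.13-fold higher (adjusted p = 0.0198, edgeR). HSPA1A met the minimum of 10 reads through its 10 reads of KCl 45min alone, and without replicate 1 or 3 of that group it was not tested. CCT2, DNAJC19 and HSPE1 met it through 17, 12 and 18 reads of JTE 1h. These genes thus entered the test by the group where they were high, which limits what their calls show. At such counts the HSPA1A call was lost without JTE 1h replicate 2 (adjusted p = 0.0799) or 3 (0.147), and the calls of CCT2, HSPE1 and DNAJC19 were lost with TMM scaling (adjusted p = 0.0562, 0.124 and 0.105) and without KCl 45min replicate 3 (0.131, 0.244 and 0.188). HSPE1 was also lost without KCl 45min replicate 2 (0.0583) and JTE 1h replicates 2 (0.0977) and 3 (0.0721), and with DESeq2 (adjusted p = 0.116).

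After 1 h of imatinib, 9 chaperone genes were tested against CTRLim and none was called, against 1.52% of 988 genes. DESeq2 called 0 as well, and 1 chaperone gene, DNAJC7, had an unadjusted edgeR p under 0.05. DNAJC7 gave 4.35, 7.41 and 4.06 RPM in CTRLim and 10.4, 17.4 and 12.5 RPM in IM 1h, which did not overlap, a log2 fold change of 1.22 ± 0.58 (SE, adjusted p = 0.323, edgeR), which was −0.041 (adjusted p = 0.960) with CTRL as the control. The median log2 fold change was 0.25 over the 9 genes and 0.19 over all 988. DNAJB9, a J-protein of the endoplasmic reticulum, gave 17.4, 18.5 and 10.2 RPM in CTRLim and 23.8, 29.7 and 19.9 RPM in IM 1h, which did not overlap (adjusted p = 0.441, edgeR).

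After 18 h, 3 of 11 chaperone genes tested were called lower than in CTRLim and 0 higher, against 8.95% of 1386 genes called lower. The median log2 fold change was −0.47 over the 11 genes and −0.01 over all 1386. HSPA8 gave 117, 120 and 142 RPM in CTRLim, 108, 133 and 118 RPM in IM 1h and 62.8, 65.0 and 61.5 RPM in IM 18h. The 3 IM 18h libraries lay close together and well below the other 6 of the set. The log2 fold change against CTRLim was −1.01 ± 0.23 (SE, adjusted p = 0.0015, edgeR). It held without any one library, but CTRL, from the other library set, gave 85.9, 85.3 and 73.5 RPM, and against CTRL the value was −0.38 (adjusted p = 0.331, edgeR). In one fit of all 18 libraries the adjusted p was 0.0571.

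HSPA9 gave 17.4, 24.1 and 46.7 RPM in CTRLim and 8.51, 8.61 and 16.3 RPM in IM 18h. The IM 18h values all lay below CTRLim, with a log2 fold change of −1.44 ± 0.39 (SE, adjusted p = 0.0085, edgeR), which became −0.93 (adjusted p = 0.256) without CTRLim replicate 3 and lost its call without IM 18h replicate 2 (adjusted p = 0.0650). The HSPA9 call was also lost with DESeq2 (adjusted p = 0.0588) and with CTRL as the control (−1.04, adjusted p = 0.103, edgeR). HSP90AB1 gave 52.2, 35.2 and 46.7 RPM in CTRLim and 23.4, 29 and 14.1 RPM in IM 18h. Its log2 fold change of −0.97 ± 0.33 (SE, adjusted p = 0.041, edgeR) kept its sign under all 16 alternatives and its call under 3, with adjusted p from 0.0208 to 0.177, and it lost the call without any one of the CTRLim libraries (0.10, 0.0586 and 0.168) and without IM 18h replicate 3 (0.177). TCP1, called lower under osmotic stress, gave 17.4, 18.5 and 18.3 RPM in CTRLim and 22.3, 27.4 and 17.8 RPM in IM 18h, which overlapped.

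Between IM 18h and IM 1h, with the same IM 18h libraries, 6 of 12 chaperone genes tested were called lower at 18 h and 0 higher, against 14.1% of 1720 genes called lower. The median log2 fold change was −0.74 over the 12 genes and −0.30 over all 1720. Under TMM scaling, where the median of all genes was −0.01, 3 chaperone genes were called lower and the calls over all genes were 111 higher and 92 lower, in place of 72 and 243. The 3 were HSPA8, DNAJC7 and HSP90AB1.

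DNAJC7, a J-protein with tetratricopeptide repeats that binds both HSP70 and HSP90, had the steepest fall of the 6. It had 7, 10 and 10 reads in IM 1h and 2, 5 and 4 in IM 18h, although the IM 18h libraries held more reads in all. In RPM this was 10.4, 17.4 and 12.5 against 2.13, 3.91 and 2.96, with CTRLim between them at 4.35, 7.41 and 4.06. The log2 fold change from 1 h to 18 h was −2.06 ± 0.51 (SE, adjusted p = 0.0015, edgeR), and the call held under every alternative in which the gene was tested.

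HSPA8 was lower at 18 h by a log2 fold change of −0.92 ± 0.17 (SE, adjusted p = 8.8e-06, edgeR), without overlap, and the call was lost in one fit of all 18 libraries (adjusted p = 0.0919). HSP90AB1 gave 44.6, 48.8 and 43.6 RPM in IM 1h, all above IM 18h, with a log2 fold change of −1.05 ± 0.26 (SE, adjusted p = 0.0019, edgeR). Its call was lost with DESeq2 (adjusted p = 0.0602) and in one fit of all 18 libraries (0.0795, edgeR). CCT5 gave 29.7, 55.8 and 49.8 RPM in IM 1h and 19.1, 29 and 17.0 RPM in IM 18h, with a log2 fold change of −1.04 ± 0.27 (SE, adjusted p = 0.0025, edgeR). The CCT5 groups came close without overlapping, and the call was lost without IM 1h replicate 2 (adjusted p = 0.0685) or 3 (0.0669), with TMM scaling (0.0556), with DESeq2 (0.0687) and in one fit of all 18 libraries (0.0800).

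HSPA9 gave 40.1, 19.2 and 19.9 RPM in IM 1h, above the 8.51 to 16.3 RPM of IM 18h, with a log2 fold change of −1.20 ± 0.35 (SE, adjusted p = 0.0083, edgeR), which became −0.77 (adjusted p = 0.225) without IM 1h replicate 1. This call was also lost with TMM scaling (adjusted p = 0.0835), with readthrough reads as the scale (0.0566), in one fit of all 18 libraries (0.0764, edgeR) and with DESeq2 (0.0995). DNAJC21, a J-protein of ribosome assembly, gave 14.9, 19.2 and 12.5 RPM in IM 1h and 6.38, 6.26 and 4.45 RPM in IM 18h. Its log2 fold change was −1.41 ± 0.43 (SE, adjusted p = 0.013, edgeR), and the call was lost without IM 1h replicate 2 (0.0798) or IM 18h replicate 3 (0.0539), with TMM scaling (0.0731), with readthrough reads as the scale (0.0569), with no minimum of reads (0.0590), in one fit of all 18 libraries (0.0871) and with DESeq2 (0.121). DNAJC21 had no read in any CTRL library and 4, 5 and 7 reads in CTRLim, a gap between untreated cells of the 2 library sets, where set and any other difference between the controls cannot be told apart.

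**Figure D4:**
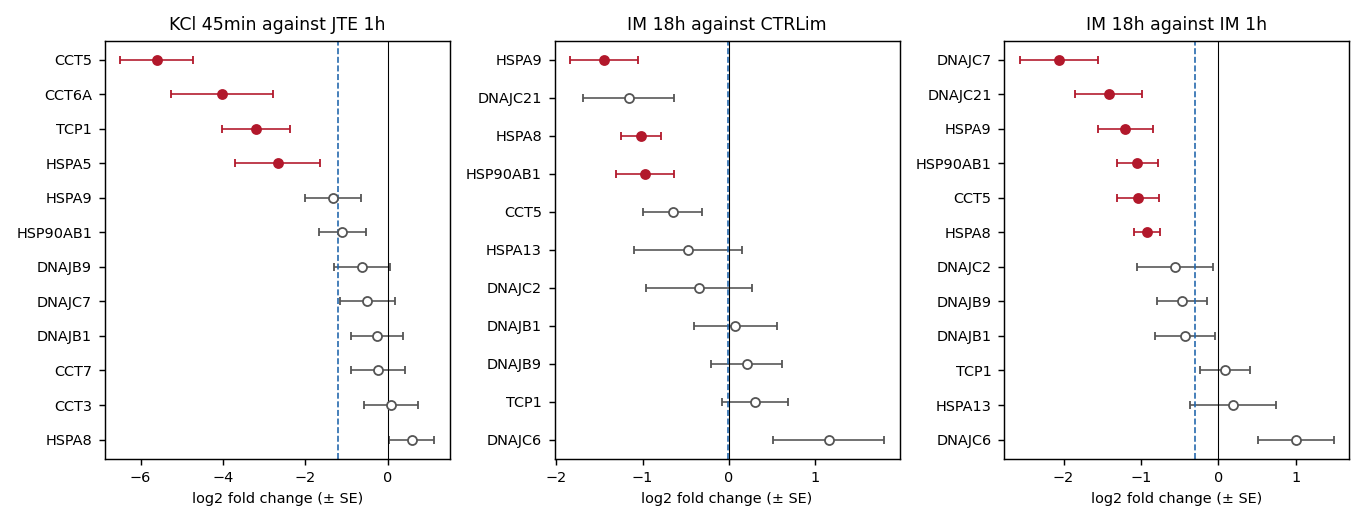
Log2 fold changes ± SE from edgeR for the chaperone genes tested in 3 comparisons, each with 3 libraries a group. Filled red points passed an adjusted p of 0.05, open points did not, and the dashed blue line is the median of all genes tested. In KCl 45min against JTE 1h this median is at −1.21, and CCT5, CCT6A, TCP1 and HSPA5 are the filled points to its left.

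**Figure D5:**
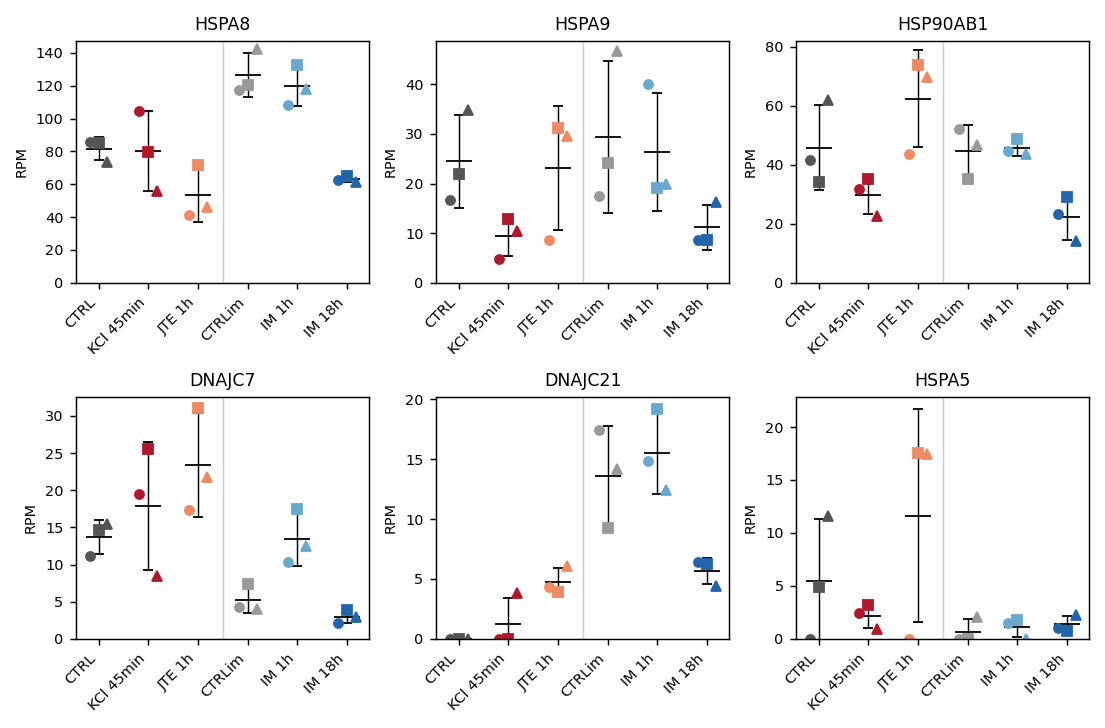
Readthrough RPM in each library for 6 HSP70, HSP90 and J-protein genes. Circles, squares and triangles are replicates 1, 2 and 3, bars show the mean ± SD (n = 3), the part of a bar below 0 is not drawn, and each panel has its own scale. HSPA8 in IM 18h is at 61.5 to 65.0 RPM, below the 108 to 142 RPM of CTRLim and IM 1h, and DNAJC21 has no read in CTRL.

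Genes that work with these chaperones were read from 4 lists of cochaperone and HSF1 genes (28), prefoldin subunits (6), folding and unfolded protein response genes of the endoplasmic reticulum (12) and osmotic stress genes (6). In KCl 45min against CTRL with at least 30 reads, 1, 0, 2 and 1 of them were tested. Only SLC38A2, an amino acid transporter, was called. It had 13, 13 and 30 reads in KCl 45min and 1, 3 and 2 in CTRL, at least 3.73-fold higher (adjusted p = 0.0029, edgeR). In JTE 1h it had 0, 23 and 49 reads, at least 3.21-fold more than CTRL as a group and not called (adjusted p = 0.277, edgeR), and KCl 45min and JTE 1h differed by a log2 fold change of 0.14 ± 0.60 (SE, adjusted p = 0.874, edgeR). With at least 10 reads, 3 of 7 cochaperone genes tested were called lower, against 11.8% of all 1885 genes, and 0 of 6 genes of the endoplasmic reticulum were called. The 3 were FKBP4 and PTGES3, both HSP90 cochaperones, and the ubiquitin gene UBB. By group means they were at least 1.75-fold, 1.93-fold and 2.30-fold lower (adjusted p = 0.022, 0.027 and 0.047, edgeR). Reads were few, with FKBP4 at 0, 1 and 0 in KCl 45min and 6, 1 and 4 in CTRL. PTGES3 had 0, 1 and 1 against 5, 2 and 5, and UBB 3, 2 and 0 against 3, 12 and 2. Most UBB reads of CTRL thus came from replicate 2. DESeq2 called 0 of the 3, and none of the 6 genes of the endoplasmic reticulum had an unadjusted edgeR p under 0.05.

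UBB was also lower in KCl 45min than in JTE 1h, as was the prefoldin subunit PFDN5, a partner of the chaperonin, in the test with at least 30 reads. UBB was at least 4.75-fold lower and PFDN5 at least 2.13-fold lower (adjusted p = 0.00078 and 0.0378, edgeR), out of 4 cochaperone genes and 1 prefoldin gene tested. PFDN5 had 3, 1 and 0 reads in KCl 45min and 10, 5 and 12 in JTE 1h, and DESeq2 did not call it. With at least 10 reads PFDN5 was not called. Of 4 prefoldin genes tested there, 1, PFDN2, was called lower, against 17.4% of 3685 genes called in either direction. Over the 4 lists with at least 30 reads, 2 of 12 genes tested were called lower in KCl 45min than in JTE 1h, against 34.1% of all genes tested. By edgeR and by DESeq2, 0 of 10 genes of the 4 lists tested were called in JTE 1h against CTRL and 0 of 8 in IM 1h against CTRLim, with 1 and 3 at an unadjusted edgeR p under 0.05. At 18 h against CTRLim, 2 of 10 genes of the lists tested were called lower, against 8.95% of all genes tested, and SLC38A2 was lower by a log2 fold change of −1.14 ± 0.26 (SE, adjusted p = 0.0014, edgeR). At 18 h against 1 h, 4 of 14 genes of the lists tested were called lower, against 14.1% of all genes tested. TRAP1, the mitochondrial HSP90, and GRPEL1, the nucleotide exchange factor of HSPA9, were among the cochaperone genes called lower. Their log2 fold changes were −1.38 ± 0.39 and −1.20 ± 0.42 (SE, adjusted p = 0.0070 and 0.0319, edgeR), and DESeq2 called neither.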

How the data were processed

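Nascent RNA of K562 cells was sequenced in 18 PacBio libraries, 3 biological replicates in each of 6 groups, grouped by their labels. The authors trimmed adapters with cutadapt, mapped reads to GRCh38.p14 with minimap2, collapsed duplicates by molecular identifier, removed polyadenylated and multiply mapped reads and counted, per gene, readthrough reads, ending over 100 nt downstream of the last exon of the most distal transcript. The deposited counts are whole numbers and were not normalized. Gene body reads were not used here.

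Transcripts were matched by identifier to GENCODE 44 (12704 matched, 347 not). Library sizes were the study's totals of reads after its filters, and RPM is readthrough reads per 1000000 of these. Libraries held 8422 to 57982 readthrough reads. For the bounds ("at least"), a group with no library above 3 reads was set to 3 reads in each library. The mean of the other group was taken as measured. The bounds therefore cover neither the counting error of the higher group nor the spread between its libraries. Genes with at least 30 reads over the 6 libraries of a comparison were tested by quasi-likelihood (glmQLFit, then glmQLFTest, edgeR 4.0.16, R 4.3.3), with Benjamini-Hochberg adjustment over all genes tested and a threshold of 0.05. A gene near the minimum of reads can pass it through the group where it is high alone, which favours a call in that direction. A minimum of 10 reads, no minimum, DESeq2 1.42.0, other scales, one fit of all 18 libraries, a replicate block, leaving out each library and other controls were the alternatives. In simulated counts of 378 genes for KCl 45min against CTRL, edgeR recovered 179 of 200 genes changed by 2 on the log2 scale and called 3 unchanged genes. The simulation had the same fixed dispersion for every gene, as many genes raised as lowered and no general shift. The measured counts had a median log2 fold change of −0.39, and their dispersion was not used. The simulation is thus a check of the procedure and does not give the power in these libraries.

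The members and gene lists were chosen with earlier results of these data known. Genes named are those called in any comparison, the 15 with most reads, and a list of 18 well-known chaperones, and the text names a selection of the last 2 groups. Replicates of the same number were checked for pairing. Their deviations correlated at 0.13 to 0.27 in KCl 45min against JTE 1h, and at 0.04 or lower for at least 1 pair in every other comparison. In KCl 45min and JTE 1h, the paper lists shorter median reads for replicate 1 than for replicates 2 and 3. Whether pairing or read length underlies the correlation was not tested. Python 3.11.15, pandas 2.3.3 and matplotlib 3.10.9 were used for tables and figures. Results for some listed genes are not reported here.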

Additional observations from a re-analysis of the deposited data

Results flagged for a closer look

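The effect of imatinib against CTRLim differed between 1 h and 18 h, by the direct test of IM 18h against IM 1h (edgeR, adjusted by Benjamini-Hochberg, 3 libraries each), for 6 chaperone genes, and in each the level was lower in all 3 libraries at 18 h. The log2 fold changes were −0.92 for HSPA8, −2.06 for DNAJC7, −1.05 for HSP90AB1, −1.04 for CCT5, −1.20 for HSPA9 and −1.41 for DNAJC21. The readthrough share of library reads moved with them, at 4.37% to 4.40% in IM 1h and 3.68% to 3.74% in IM 18h, and its part in these changes was not tested. Groups of 3 libraries were too small to look for single outlying libraries.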

How the results depend on the processing

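The number of chaperone genes called depended on the processing. In KCl 45min against CTRL it was 3 with at least 10 reads and 2 with no minimum, in place of 0. In JTE 1h against CTRL it was 1 in one fit of all 18 libraries and 0 to 1 with a library left out, in place of 0. In KCl 45min against JTE 1h it was 2 with TMM scaling, 8 with at least 10 reads and 1 to 5 with a library left out, in place of 4. In IM 1h against CTRLim it was 2 with CTRL as the control, in place of 0. In IM 18h against CTRLim it was 1 with DESeq2, 1 in one fit of all 18 libraries, 1 with CTRL as the control, 1 with all 6 untreated libraries as the control and 1 to 3 with a library left out, in place of 3. In IM 18h against IM 1h it was 3 with TMM scaling, 2 with DESeq2, 1 in one fit of all 18 libraries and 3 to 6 with a library left out, in place of 6. The lower minimum tests more genes, and the cause of the other changes was not tested.

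The summed reads (log2 ratios) scaled by readthrough reads were −0.014 in KCl 45min against CTRL, −0.11 in JTE 1h against CTRL (0.30 by library reads) and 0.098 in KCl 45min against JTE 1h (−0.81 by library reads). They were 0.028 in IM 1h against CTRLim, −0.43 in IM 18h against CTRLim and −0.46 in IM 18h against IM 1h. With CTRL as the control the sum was 0.32 in IM 1h and −0.38 in IM 18h, and with all 6 untreated libraries −0.46 in IM 18h. In IM 18h against CTRLim it was −0.43 scaled by mapped reads and −0.38 without HSPA8. The log2 fold change of HSPA8 in KCl 45min against CTRL, −0.05, was 0.35 with TMM scaling, 0.43 scaled by readthrough reads, 0.0071 scaled by mapped reads and −0.30 to 0.18 with a library left out, positive without KCl 45min replicate 3, none of them called. That of DNAJC7 in IM 1h against CTRLim, 1.22, was −0.041 with CTRL as the control, called in neither. No other log2 fold change of the chaperone genes for which alternatives were computed changed sign.

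With the replicate block, 4 chaperone genes were called in KCl 45min against JTE 1h, where same-numbered libraries deviated alike, as without it. In the other comparisons the numbers are not shown to pair the libraries, and the block gave 0, 0, 0, 3 and 6 called chaperone genes in KCl 45min against CTRL, JTE 1h against CTRL, IM 1h against CTRLim, IM 18h against CTRLim and IM 18h against IM 1h, the same numbers as without it. With at least 10 reads it ended the call of CCT6A in KCl 45min against CTRL (adjusted p = 0.155, edgeR). The fits with at least 10 reads together with another choice, and the sums without CCT5, TCP1 and CCT6A, were chosen after seeing the data. Of the 75 genes, 45 had fewer than 30 reads over all libraries, so depth leaves most of them untested.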
